A study of Mus musculus with 12 samples.

Results

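The chemokine receptor Cxcr4, its ligand Cxcl12, the second receptor of that ligand, Ackr3, and the peptidase Dpp4 were followed across 4 groups of mice in sorted blood-forming stem cells. These 4 genes are among 37074 gene names on the array, and all probes that carry their names were taken, which gave 8 of 56605 probes that are not controls. A probe was tested where 3 or more of the 12 arrays measured it well above background, which held for 7 of the 8 and failed for 1 Dpp4 probe.

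The cells were LSK SLAM cells of the bone marrow, a gate that takes cells without lineage markers that carry Sca-1 and Kit and selects among them by SLAM family proteins, sorted by flow cytometry after enrichment for Kit. POL5551, an antagonist of CXCR4, was infused continuously for 2 weeks at 100 mg/kg per day. G-CSF, a cytokine that drives stem cells from marrow into blood, was given as 4 injections over 2 days or as 9 injections over 5 days, each of 100 ug/kg and 12 h apart. The controls were sham-operated. Each group held 3 male mice with 1 array each. The operation is named for the sham mice only, and no strain or age is given in the sources used here. Nothing in the labels says that the mice of a group came from separate experiments, so p-values measure the spread between these mice.

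CXCR4 is a receptor coupled to inhibitory G proteins that keeps stem cells in the marrow. Its chemokine CXCL12 is made mainly by reticular stromal cells around the marrow sinusoids, which are also a source of stem cell factor and adiponectin, while stem cells carry the receptor and little of the chemokine. ACKR3, also called CXCR7, binds the same chemokine and takes it up without signalling through G proteins. DPP4, also called CD26, is a membrane peptidase that clips the amino end of CXCL12 and so weakens it.

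The sequences below are those of the probes, since each signal is that of 1 probe and the probes of a gene did not always run together. All are in the array design's own orientation, 5′ to 3′, with coordinates on mm9. Capitals mark AATAAA, the polyadenylation signal, which was searched on both strands of the probe. It was present on the printed strand in 2 of the 8 probes and in 9.77% of all probes, and its reverse complement was present in 3.85% of all probes and in 1 of the 8. Of probes that lie at the 3′ end of a transcript, 30 of the 60 bases are shown, and the others are shown whole. Cxcr4 lies on the minus strand of chromosome 1, where its 3′ end probe, A_52_P585124, covers chr1:130485079-130485138 and its upstream probe, A_55_P2745744, covers chr1:130486114-130486173, 975 bases apart.
Cxcr4 3′ end probe: gtgtggtaaattgAATAAAgctagccgtga
Cxcr4 upstream probe: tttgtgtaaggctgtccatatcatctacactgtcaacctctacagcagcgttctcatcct
Cxcl12 lies on the plus strand of chromosome 6. Probe A_51_P172502 at chr6:117131227-117131286 reads transcript variants 2 and 3, and probe A_55_P1966204 at chr6:117125026-117125085 reads variant 1, 6141 bases upstream.
Cxcl12 variants 2 and 3: tgctttcttattcttatttttaatatatga
Cxcl12 variant 1: tttatttacctgaAATAAAatctactagtt
Ackr3 has 1 probe, A_66_P136674, at chr1:92112211-92112270 on the plus strand.
Ackr3: aacagagcgttctgttgatttgtaagttat
Dpp4 lies on the minus strand of chromosome 2. Its 3′ end probe is A_51_P467110 at chr2:62170062-62170121, and probe A_55_P2718945 at chr2:62245782-62245841 is assigned to 1 Ensembl transcript only, 75660 bases away. The third probe, A_52_P417368, covers 60 bases of transcript but 2067 bases of genome (chr2:62192636-62194702), which places it across an intron, and it was the one not above background on any array. The array design assigns it to the same transcript as the 3′ end probe, so these probes disagree on the presence of that transcript.
Dpp4 3′ end probe: cagttgaatagactccaaagaaatgcaagg
Dpp4 Ensembl transcript probe: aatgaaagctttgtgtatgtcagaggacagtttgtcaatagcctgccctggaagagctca
Dpp4 exon junction probe: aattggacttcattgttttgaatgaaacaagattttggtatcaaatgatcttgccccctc

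Levels are given on the log2 scale relative to each array's 75th percentile, so that a level of 0 is the signal that 75% of an array's probes do not exceed. That percentile lay at a signal of 1638 to 5579, between 75.3% and 85.6% of probes passed the background test, and no spot was saturated. Sham mouse 1 stood apart: its rank correlation with the other sham arrays was 0.758 and 0.752, against 0.922 between those 2, and its median over 1537 probes of odour, pheromone and taste receptors and keratin-associated proteins, genes of other tissues (the off-tissue median), was -1.61, against -5.17 to -2.41 on the other 11 arrays. Results on the members and lists that rest on sham mouse 1 are therefore also given without it. The off-tissue median ran from -5.17 to -4.11 in POL5551 mice, -3.45 to -1.61 in sham mice, -2.74 to -2.41 in 2-day mice and -3.97 to -3.25 in 5-day mice. It did not overlap between POL5551 and any other group. Fits with it as a covariate therefore cannot separate it from treatment in comparisons with POL5551. The median difference of all 49499 tested probes between POL5551 and sham was -0.34, against -0.01 under quantile normalization, 0.06 under median scaling and -0.48 under a 75th percentile over probes above background on all arrays, and changes are read relative to it. The markers used for the sort were present, with Kit, the stem cell factor receptor, and Ly6a, the gene of Sca-1, well above background on 12 arrays and Slamf1, the gene of CD150, on 11. In samples of this kind, fewer cells of a type and less RNA per cell cannot be told apart.

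**Figure D1:**
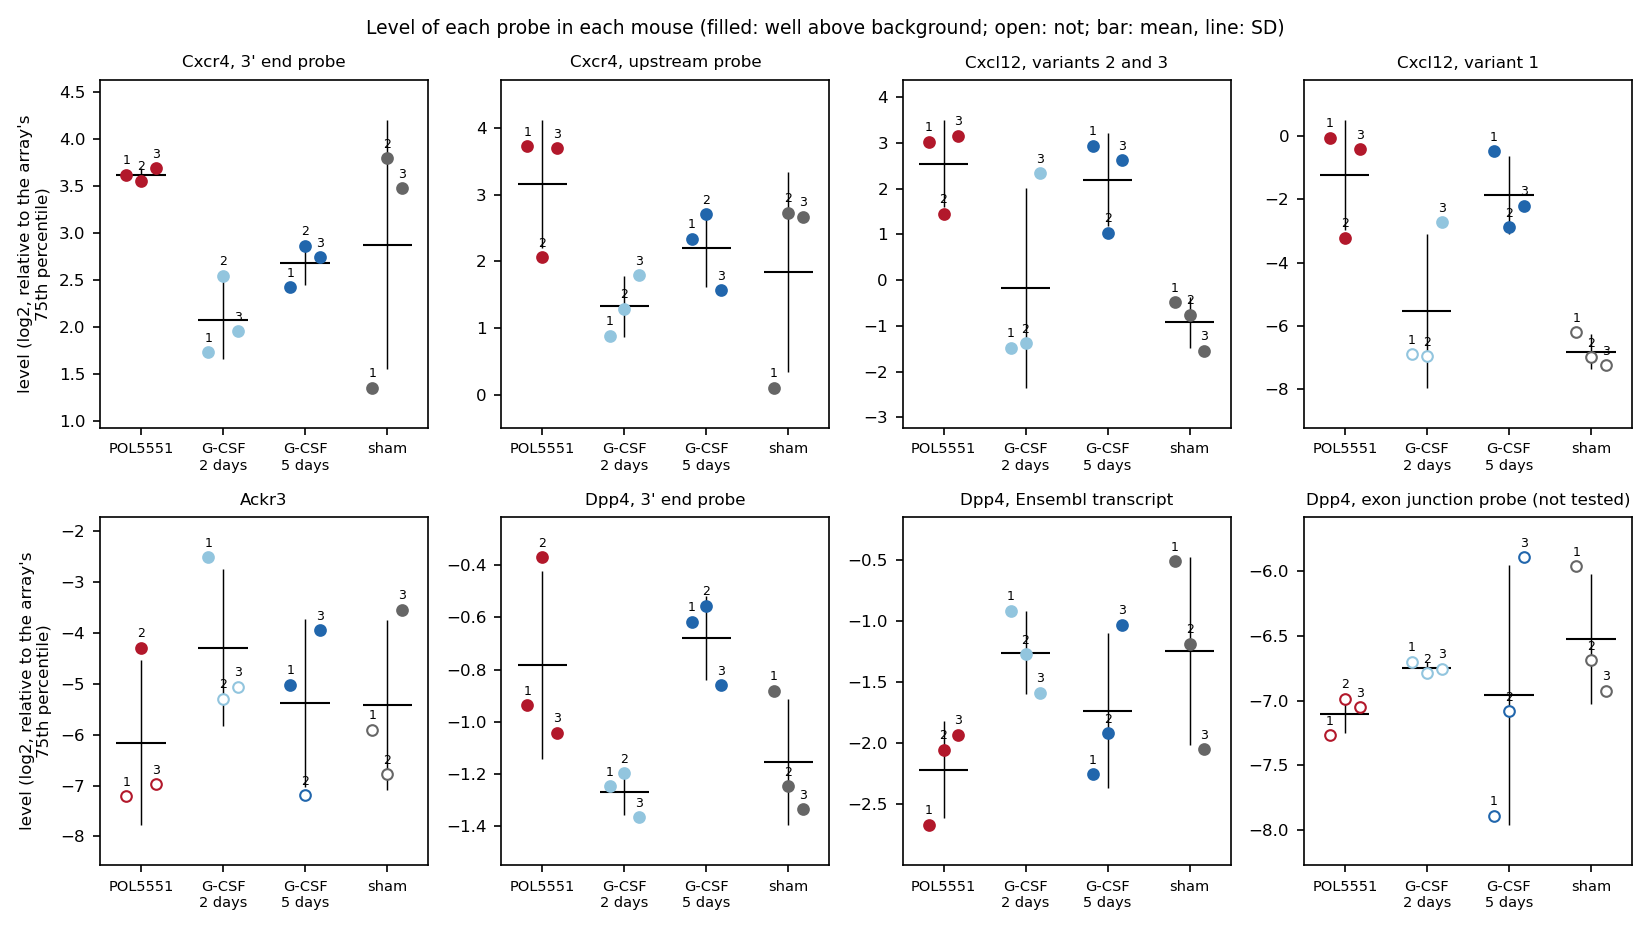
Level of each of the 8 probes in each mouse (y axis, log2 relative to the array's 75th percentile; y ranges differ between panels), by group; numbers are mouse numbers, bars are group means and vertical lines are SDs (n = 3). Cxcl12 was high in all POL5551 and 5-day G-CSF mice and in 1 of the 2-day mice, and Cxcr4 was low in sham mouse 1 only among the sham mice.

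Cxcl12 showed the largest differences from sham of the 4 genes. On the probe of variants 2 and 3 the ligand stood at 3.03, 1.45 and 3.16 in POL5551 mice 1, 2 and 3. It was at -1.48, -1.38 and 2.34 in the 2-day G-CSF mice and at 2.94, 1.03 and 2.62 in the 5-day mice. The sham mice had -0.48, -0.75 and -1.54. All POL5551 and all 5-day mice therefore lay above all sham mice, while the 2-day group held 2 mice at or near the sham level and 1 mouse, mouse 3, among the high ones.

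The probe of variant 1 divided the mice in the same way. Its level was -0.04, -3.22 and -0.41 in POL5551 mice, -6.91, -6.97 and -2.73 in 2-day G-CSF mice, -0.47, -2.87 and -2.20 in 5-day mice, and -6.21, -7.01 and -7.25 in sham mice. It was well above background in all 3 POL5551 mice, in 2-day mouse 3, in all 3 of the 5-day mice, and in no sham mouse. The same mouse was the high one of the 2-day group on both probes, and mouse 2 was the low one of both the POL5551 and the 5-day group.

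Against sham, the variant 1 probe rose under POL5551. Its mean was -1.22 ± 1.74 in POL5551 mice and -6.82 ± 0.55 in sham mice (SD, n = 3 each), a fitted difference of 5.60 (SE 1.16, limma adjusted p = 0.0462). Because no sham array was well above background, the measured part of this is a bound, at least 10.7-fold higher. The sham signals were 20.8 to 22.2, so their SD follows the scaling of the arrays more than the spread between mice. The SE and adjusted p-values of this probe rest in part on such values, and it passed the filter through treated mice only. The variant 1 probe was the only one of the 7 tested to pass at an adjusted p of 0.05 in that comparison, in which 1.41% of all tested probes passed, 0.182% upward. Of those calls 90 were higher and 608 lower, 12.9% higher, a share that was 9.17% under a 75th percentile over probes above background on all arrays and 33.1% to 40.7% under quantile normalization, normexp, median scaling and in the authors' deposited table, while the Cxcl12 difference was positive under each. Before adjustment 2 of the 7 member probes, both of Cxcl12, and 31.5% of all tested probes were under 0.05. The probe of variants 2 and 3 averaged 2.54 ± 0.95 in POL5551 mice and -0.93 ± 0.55 in sham mice, a difference of 3.47 (SE 0.946), and missed the threshold (limma adjusted p = 0.0749). Both probes separated the 2 groups with no overlap, as did 11.4% of all tested probes upward, and a difference larger than that of variants 2 and 3 was seen in 0.107% of tested probes.

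The call on variant 1 was close to the threshold. Of 12 fits that left out 1 array, it held without sham mouse 3 (adjusted p = 0.0432) and without 2-day mouse 3 (0.0275), and was lost without any other (0.0504 to 0.174), the difference staying between 5.01 and 6.60. It was also lost in 9 of 14 other settings, at differences of 2.72 to 6.22. POL5551 mice 1 and 2 shared slides with sham mice. Within those slides POL5551 mouse 1 exceeded sham mouse 1 by 6.16 on the variant 1 probe and 3.51 on the other, and POL5551 mouse 2 exceeded the mean of sham mice 2 and 3 by 3.91 and 2.59.

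After 5 days of G-CSF the ligand was at a level close to that under POL5551. The variant 1 probe averaged -1.85 ± 1.24 in 5-day mice and -6.82 ± 0.55 in sham mice, at least 6.95-fold higher, with a fitted difference of 4.97 (SE 1.16, limma adjusted p = 0.196). The other probe averaged 2.20 ± 1.02 in 5-day mice and -0.93 ± 0.55 in sham mice, a difference of 3.12 (SE 0.946, adjusted p = 0.318). None of the 7 probes passed in this comparison in limma, against 0.0727% of all tested probes. Before adjustment 2 of the 7 were under 0.05, both of Cxcl12, against 11.2% of all tested probes. Of the 7, 3 separated the groups upward with no overlap, both Cxcl12 probes and the Dpp4 3′ end probe, against 5.46% of all tested probes. With the slide as a fixed term the difference on variants 2 and 3 was 0.86 (SE 2.12), the 5-day mice having shared a slide with POL5551 mouse 3 alone and with no sham mouse.

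POL5551 and 5 days of G-CSF did not differ by more than their spread on either Cxcl12 probe. The difference was 0.63 on variant 1 (95% interval -1.92 to 3.17) and 0.35 on variants 2 and 3 (95% interval -1.73 to 2.43), so that differences of several fold either way remain within them. On the 1 slide that held both groups, POL5551 mouse 3 exceeded 5-day mouse 2, the lowest of its group on both probes, by 2.47 and 2.13.

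All 2-day arrays lay on 1 slide that held no other group, so slide and treatment cannot be told apart in any comparison with them. The 2-day group lay between, because of mouse 3. Its mean on variants 2 and 3, -0.17 ± 2.18 (SD, n = 3), differed from that of the sham mice by 0.75 (SE 0.946, limma adjusted p = 0.881), and without mouse 3 the difference was -0.51. On variant 1 the difference was 1.29 (SE 1.16, adjusted p = 0.810). None of the 7 member probes passed in this comparison in limma, against 0.0222% of all tested probes, and none was under 0.05 before adjustment, against 8.98%. POL5551 exceeded 2 days of G-CSF on variant 1 by 4.31 (SE 1.16, limma adjusted p = 0.0287), the only call among the 7 probes there, in a comparison in which 23.5% of all tested probes passed, 5.65% upward. That call was lost without POL5551 mouse 1 or 3 or without 2-day mouse 1 or 2 (adjusted p from 0.0663 to 0.105) and when the off-tissue median was a covariate (0.557), and the groups overlapped. On the other probe the difference was 2.72 (SE 0.946, adjusted p = 0.0563). Between 5 and 2 days of G-CSF the differences were 3.69 on variant 1 (SE 1.16, adjusted p = 0.264) and 2.37 on variants 2 and 3 (SE 0.946, adjusted p = 0.293), and no probe of the array passed (0% called). Before adjustment 2 of the 7 member probes, again those of Cxcl12, and 15.3% of all tested probes (7552) were under 0.05.

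The order of the group means was the same on both Cxcl12 probes, with POL5551 first, then 5 days of G-CSF, 2 days of G-CSF and sham. Of neighbours in that order, none differed beyond the spread at the threshold used. The moderated F test over the 4 groups had an adjusted p of 0.0589 on variant 1 and 0.0866 on variants 2 and 3, and 0.966% of all tested probes passed it.

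**Figure D2:**
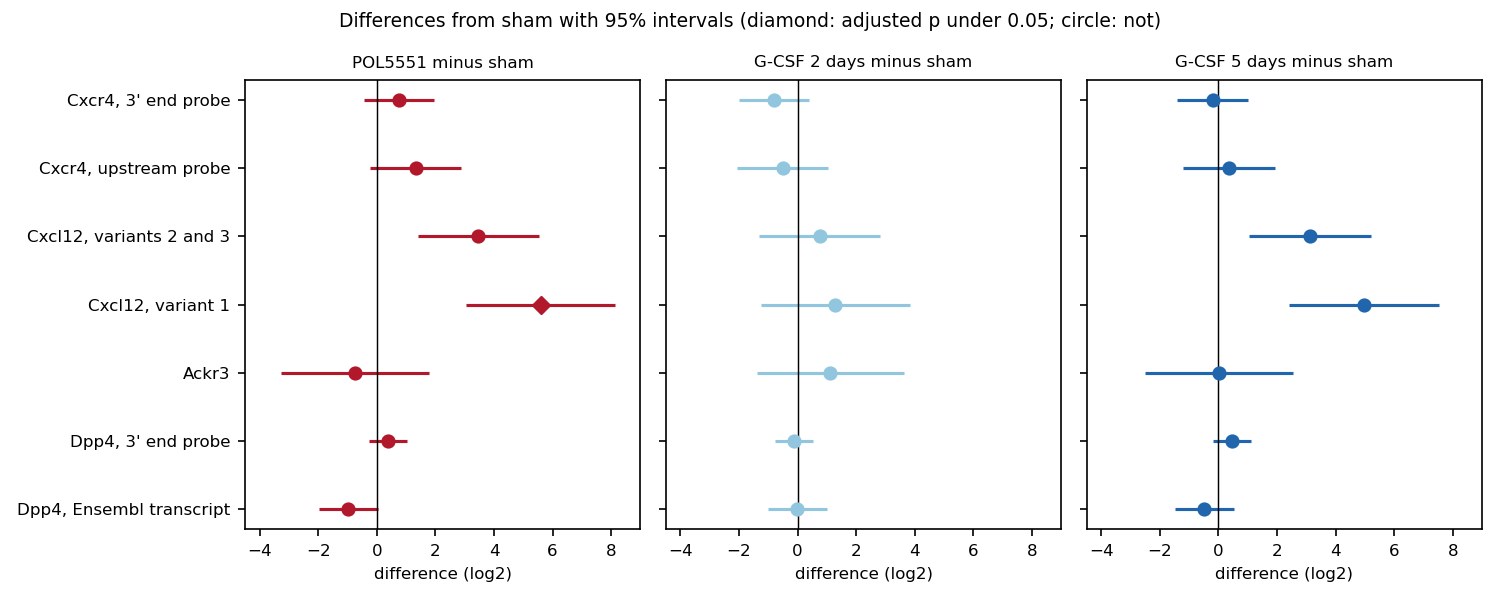
Difference from sham of the 7 tested probes (x axis, log2; points are fitted differences, lines 95% intervals from the limma fit over all 12 arrays), for POL5551, 2 days and 5 days of G-CSF. The interval of both Cxcl12 probes lies above 0 under POL5551 and after 5 days of G-CSF, with only variant 1 under POL5551 passing after adjustment.

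The genes whose profile over the 12 arrays was most like that of the Cxcl12 probe of variants 2 and 3 were Gpx3, Hp, Adipoq and Kng1. Likeness was measured as the root mean square of the difference between 2 profiles, each centred on its own mean, among 23287 candidate probes. It was 0.31 for Gpx3, a secreted glutathione peroxidase, 0.40 for Hp, haptoglobin, 0.41 for Adipoq, adiponectin, and 0.56 for Kng1, kininogen, where the median candidate was at 1.87. Adipoq stood at 3.12, 1.32 and 2.92 in POL5551 mice, at -0.95, -0.70 and 1.83 in 2-day mice, at 3.15, 0.67 and 2.80 in 5-day mice and at -0.27, -1.44 and -2.04 in sham mice. These 4 genes were picked for their likeness to Cxcl12 on the same arrays. That they share its high and low mice and its differences follows from that choice and adds no support. In all 4, 2-day mouse 3 was the highest of its group, and mouse 2 the lowest of the POL5551 and of the 5-day group. The difference between POL5551 and sham was 3.80 for Gpx3, 3.73 for Hp, 3.71 for Adipoq and 3.74 for Kng1.

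Markers of reticular stroma, cells the sort gate was not meant to hold, were measured beside the ligand. Of 18 such markers all were tested, and 2 rose under POL5551, Ebf3, a transcription factor of CXCL12-abundant reticular cells, at 5.43 (SE 0.840, limma adjusted p = 0.0208, at least 11.2-fold higher, no sham array above background) and Pdgfrb, a receptor of perivascular cells, at 3.62 (SE 0.692, adjusted p = 0.0379). Ebf3 was well above background in 3 POL5551 mice, 1 of the 2-day mice, 3 of the 5-day mice and 0 sham mice. It thus passed the filter through the groups in which it was high, and its SE and adjusted p rest in part on background readings. The Ebf3 call was lost without sham mouse 1 (adjusted p = 0.0617) or POL5551 mouse 1 (0.0889), and the Pdgfrb call without any 1 of 8 arrays (0.0524 to 0.143), among them all 3 POL5551 mice. Of 15 other settings, the Ebf3 call was lost in 2 (adjusted p 0.0507 and 0.578) and the Pdgfrb call in 7 (0.0560 to 0.912), with the difference of Pdgfrb at 1.21 when the off-tissue median was a covariate. The median difference of the 18 was 1.08 under POL5551, 0.88 after 2 days and 0.89 after 5 days of G-CSF, with 12, 15 and 14 of them above sham. Without sham mouse 1 these medians were 1.25, 1.19 and 1.08. The summed level of the list, in units of the 75th percentile, ran from 22.1 to 58.1 in POL5551 mice, from 18.4 to 58.6 in 2-day mice, from 15.8 to 48.7 in 5-day mice and from 11.7 to 23.0 in sham mice. The lowest POL5551 mouse was again mouse 2 and the highest 2-day mouse was mouse 3, which also held for the neutrophil markers given below. Of the 18, 12 lay nearer to the Cxcl12 profile than the median candidate, led by Hp, Adipoq, Col1a2 at 0.60 and Lepr, the leptin receptor, at 0.78, while 6 lay farther, among them Kitl, the gene of stem cell factor, at 1.99 and Pdgfra at 2.11. Kitl differed from sham by -0.57 and Pdgfra by -0.82 under POL5551, both named after their values were seen. The markers were well above background on 17 to 18 of 18 probes in POL5551 mice, 16 to 18 in 2-day mice, 18 in 5-day mice and 15 to 17 in sham mice, so that none of the groups was free of them, and their part in the Cxcl12 result was not tested.

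**Figure D3:**
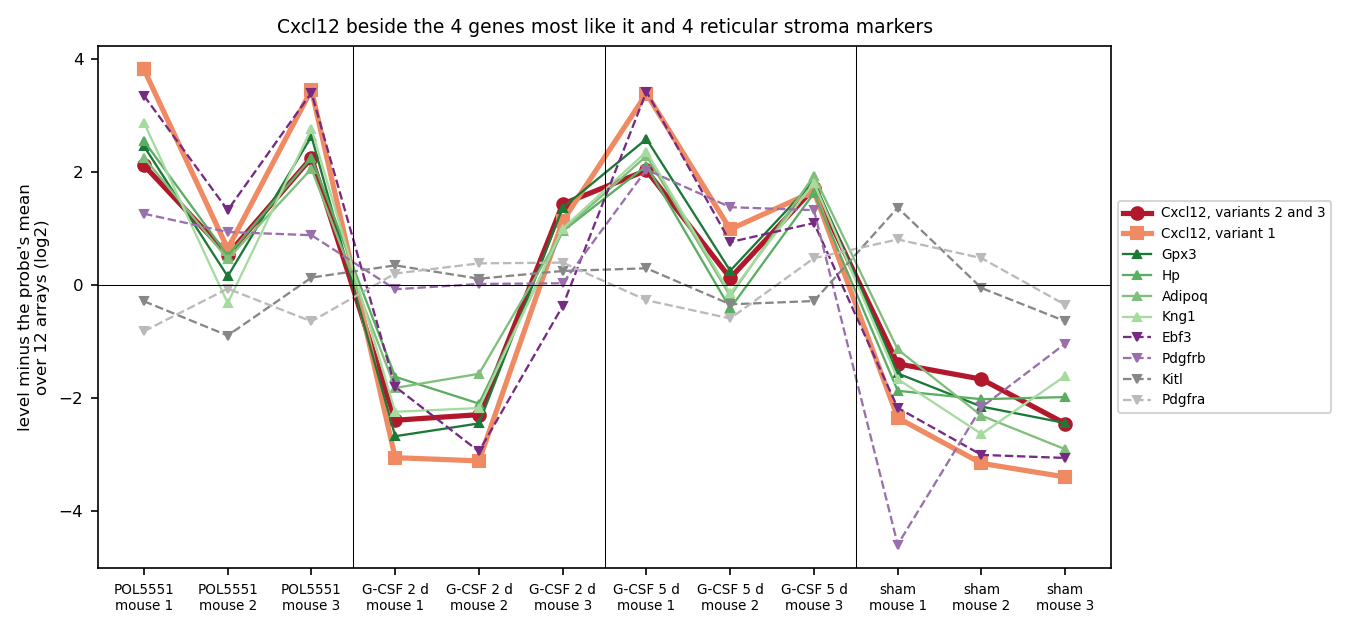
Level minus the probe's mean over the 12 arrays (y axis, log2) in each mouse (x axis, by group) for both Cxcl12 probes (thick lines), the 4 genes most like Cxcl12 (triangles up) and 4 reticular stroma markers (dashed, triangles down; the 2 that passed under POL5551, and Kitl and Pdgfra, chosen after their values were seen). Gpx3, Hp, Adipoq and Kng1 were picked for their likeness to Cxcl12 on these arrays, so their agreement with it follows from that choice. Cxcl12, Gpx3, Hp, Adipoq, Kng1 and Ebf3 are high in the POL5551 and 5-day mice and lower in mouse 2 of both groups, a pattern that Kitl and Pdgfra do not share.

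Cxcr4, the receptor and the target of POL5551, was well above background on all 12 arrays with both probes. On the 3′ end probe it stood at 3.62, 3.56 and 3.69 in POL5551 mice, at 1.73, 2.55 and 1.96 in 2-day G-CSF mice, at 2.43, 2.86 and 2.74 in 5-day mice, and at 1.36, 3.79 and 3.47 in sham mice. The POL5551 mice lay within a narrow band, and sham mice 2 and 3 lay on either side of it. Sham mouse 1 was the lowest of all 12.

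The receptor did not pass the test against sham in any group. Under POL5551 it averaged 3.62 ± 0.07 and in sham mice 2.87 ± 1.32 (SD, n = 3 each), a difference of 0.75 (SE 0.546, limma adjusted p = 0.320). Without sham mouse 1 the difference was -0.01 (SE 0.305, adjusted p = 0.985). Within slides the differences were 2.26 between POL5551 mouse 1 and sham mouse 1 and -0.08 between POL5551 mouse 2 and the mean of sham mice 2 and 3, so the direction of this comparison rested on 1 array. It was -0.86 when the off-tissue median was a covariate, 1 of 16 other settings. After 2 days of G-CSF the difference from sham was -0.80 (SE 0.546, adjusted p = 0.723) and without sham mouse 1 -1.56 (SE 0.305, adjusted p = 0.063). After 5 days it was -0.20 (SE 0.546, adjusted p = 0.896) and without sham mouse 1 -0.96 (SE 0.305, adjusted p = 0.429).

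Between the treatments the 3′ end probe separated POL5551 from both G-CSF groups without overlap. POL5551 exceeded 2 days of G-CSF by 1.54 (SE 0.546, limma adjusted p = 0.0589), a 2.91-fold difference in mean, and exceeded 5 days of G-CSF by 0.94 (SE 0.546, adjusted p = 0.513). The first of these comparisons uses no sham array in its means, but the shared spread does: without sham mouse 1 its adjusted p was 0.00576 and without sham mouse 2 0.0451, and the difference was -0.25 when the off-tissue median was a covariate. It passed in 5 of 15 other settings. The 2-day arrays were alone on their slide, so slide and treatment cannot be told apart in this comparison. Non-overlap was common in both comparisons, in which 23.8% and 10.2% of all tested probes lay apart upward, 3 of the 7 member probes in the first (both of Cxcr4 and the 3′ end probe of Dpp4) and 1 of the 7 in the second. None of the 7 passed between POL5551 and 5 days of G-CSF in limma, against 0.0525% of all tested probes, and none was under 0.05 before adjustment, against 10.5%. Between 5 and 2 days of G-CSF the receptor differed by 0.60 (SE 0.546, adjusted p = 0.560).

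The upstream Cxcr4 probe gave 3.73, 2.06 and 3.70 in POL5551 mice, 0.88, 1.29 and 1.79 in 2-day mice, 2.34, 2.71 and 1.56 in 5-day mice, and 0.10, 2.73 and 2.67 in sham mice. Sham mouse 1 was again the lowest of the 12. On this probe POL5551 mouse 2 lay below sham mice 2 and 3, and the other POL5551 mice lay above them. The difference between POL5551 and sham was 1.33 (SE 0.710, limma adjusted p = 0.203) and without sham mouse 1 0.46 (SE 0.547, adjusted p = 0.659). POL5551 exceeded 2 days of G-CSF by 1.84 (SE 0.710, adjusted p = 0.0737) with no overlap, and that difference passed without sham mouse 1 (adjusted p = 0.0163). The F test over the 4 groups had an adjusted p of 0.218 on the 3′ end probe and 0.248 on the upstream probe. In order of group means the 3′ end probe ran POL5551, sham, 5 days and 2 days of G-CSF, and the upstream probe POL5551, 5 days, sham and 2 days, with no neighbours that passed.

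The genes most like Cxcr4 over the 12 arrays were Tbkbp1 at 0.19, an adaptor of TBK1, Ccnd2 at 0.20, cyclin D2, Pdlim7 at 0.21 and Uros at 0.22, an enzyme of haem synthesis, where the median candidate was at 0.87. All 4 were lowest in sham mouse 1, which follows from their having been picked for likeness to Cxcr4 on these same arrays. Ccnd2 was at -0.13 there and at 2.44 and 1.97 in sham mice 2 and 3. Of 10 markers of the sort and of stem cells, 7 lay nearer to the Cxcr4 profile than the median candidate, among them Procr at 0.44 and Hlf at 0.58. Flt3 at 1.11, Cd48 at 1.17 and Mecom at 1.40 lay farther. None of the sort markers Kit, Ly6a and Slamf1 passed against sham: under POL5551 the differences were -0.04 for Kit (adjusted p = 0.920), 1.05 for Ly6a (0.245) and 1.53 for Slamf1 (0.173). After 2 days of G-CSF they were -0.27, 0.23 and 0.30 (adjusted p from 0.838 to 0.956), and after 5 days -0.37, 1.05 and 0.62 (0.539 to 0.738). Without sham mouse 1 Ly6a differed by 0.16 and Slamf1 by 0.55 under POL5551, by -0.66 and -0.67 after 2 days and by 0.15 and -0.36 after 5 days. The off-tissue median, which was -1.61 in sham mouse 1, was highest in the mouse where Cxcr4 was lowest, and its part in the result was not tested.

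Ackr3, the second receptor, was near the background of the array. It stood at -7.21, -4.29 and -6.97 in POL5551 mice, -2.52, -5.30 and -5.06 in 2-day mice, -5.02, -7.19 and -3.95 in 5-day mice and -5.90, -6.78 and -3.55 in sham mice. It was well above background in 1 POL5551 mouse, 1 of the 2-day mice, 2 of the 5-day mice and 1 sham mouse, so that every group mixed measured and unmeasured values. No comparison passed (limma adjusted p from 0.214 to 0.995), and the 95% interval of POL5551 minus sham, -3.26 to 1.78, spanned several fold in both directions. The fitted POL5551 difference of -0.74 was 0.10 under quantile normalization and -0.99 without sham mouse 1. By group mean the order was 2 days of G-CSF at -4.29, 5 days at -5.39, sham at -5.41 and POL5551 at -6.16, with no neighbours apart. The nearest profiles were those of Scrt1 at 0.80, Skint10 at 0.84 and Ascl5 and Fbln2 at 0.86, where the median candidate was at 1.67. Such a distance grows with a probe's own SD over the 12 arrays, 1.55 for Ackr3 and 0.33 for the Dpp4 3′ end probe. It is therefore not compared between members.

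Dpp4, the peptidase, was measured on all 12 arrays by 2 probes, whose differences under POL5551 had opposite signs. On the 3′ end probe it stood at -0.94, -0.37 and -1.04 in POL5551 mice, at -1.25, -1.20 and -1.36 in 2-day mice, at -0.62, -0.56 and -0.86 in 5-day mice and at -0.88, -1.25 and -1.33 in sham mice. The 5-day mice lay above all 2-day mice and above all sham mice, of which mouse 1 was close. On the Ensembl transcript probe it stood at -2.67, -2.05 and -1.93 in POL5551 mice, -0.91, -1.27 and -1.58 in 2-day mice, -2.25, -1.92 and -1.03 in 5-day mice and -0.51, -1.18 and -2.05 in sham mice. There the POL5551 mice lay below all 2-day mice and below sham mice 1 and 2. The exon junction probe is assigned to the same transcript as the 3′ end probe but was not above background on any array. It read -7.27 to -6.99 in POL5551 mice, -6.79 to -6.70 in 2-day mice, -7.89 to -5.90 in 5-day mice and -6.92 to -5.97 in sham mice. The POL5551 readings lay below all sham and 2-day readings. All are background signals shifted by each array's scaling, so no difference is read from them.

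No Dpp4 difference passed. The 3′ end probe was 0.37 higher under POL5551 than in sham (SE 0.296, limma adjusted p = 0.358), 0.48 higher after 5 days of G-CSF (adjusted p = 0.543) and -0.12 after 2 days (adjusted p = 0.951). Without sham mouse 1 these differences were 0.51, 0.61 and 0.02. Between 5 and 2 days of G-CSF it differed by 0.59 (SE 0.296, adjusted p = 0.355), with no overlap, as did 14.3% of all tested probes upward. The Ensembl transcript probe differed by -0.97 under POL5551 (SE 0.460, adjusted p = 0.169), by -0.01 after 2 days (adjusted p = 0.998) and by -0.48 after 5 days (adjusted p = 0.673). Between 5 and 2 days its difference was -0.48 (SE 0.460, adjusted p = 0.581), opposite in sign to that of the 3′ end probe. Without sham mouse 1 its differences from sham were -0.60 under POL5551, 0.36 after 2 days and -0.12 after 5 days. Its POL5551 difference was 0.43 when the off-tissue median was a covariate, and the contrast between the 2 probes was not tested. POL5551 lay 0.96 below 2 days of G-CSF on it (a difference of -0.96, adjusted p = 0.127) without overlap, as did 36.8% of all tested probes downward. The F tests over the 4 groups had adjusted p-values of 0.317 and 0.294, and that of Ackr3 0.561. On the 3′ end probe the order of means was 5 days, POL5551, sham and 2 days, and on the other sham, 2 days, 5 days and POL5551, with no neighbours that passed. The genes most like the 3′ end probe were Tesk2 and Ybx1 at 0.15 and Gdap2 and Riok3 at 0.16, with the median candidate at 0.65. T and NK cell markers, of which 9 of 10 were tested and none passed against sham, had summed levels of 11.2 to 14.7 in POL5551 mice, 43.7 to 94.97 in 2-day mice, 12.6 to 30.8 in 5-day mice and 14.5 to 47.8 in sham mice, and their part in the Dpp4 values was not tested.

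The wider pathway was described with 6 lists. Among 26 signal transducers downstream of CXCR4, from the inhibitory G proteins Gnai2 and Gnai3 to Rac and Akt, none passed in any comparison with sham, and 5, 2 and 0 were under 0.05 before adjustment under POL5551, after 2 days and after 5 days of G-CSF, where 31.5%, 8.98% and 11.2% of all tested probes were. The median difference was 0.71 under POL5551, with 22 of 26 above sham, -0.05 after 2 days and 0.33 after 5 days, beside -0.52, 0.10 and -0.13 over 33231 gene names read the same way, of which 35.9% were above sham under POL5551. Without sham mouse 1, a setting added after the data were seen, the medians were 0.40 under POL5551, -0.60 after 2 days and 0.0028 after 5 days, beside -0.26, 0.21 and -0.04 over all gene names. The largest positive difference was that of Vav1, an exchange factor of Rac, at 1.40 under POL5551 (limma adjusted p = 0.146) and 0.91 after 5 days (0.558). The largest negative ones were -0.61 for the focal adhesion kinase Ptk2 under POL5551 (0.184) and -0.35 for the adaptor Crk after 5 days (0.855). Vav1 was at 0.70 in sham mouse 1 and at 3.43 and 3.08 in the other sham mice, and without mouse 1 its differences were 0.55 under POL5551 and 0.06 after 5 days, while that of Crk after 5 days was 0.02.

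The 18 genes of receptor desensitization, the kinases, arrestins, sorting proteins and RGS proteins that switch the receptor off, had no calls against sham and medians of 0.68 under POL5551, 0.28 after 2 days and 0.42 after 5 days, with 6, 2 and 2 under 0.05 before adjustment, beside the same shares of all tested probes. Without sham mouse 1 the medians were 0.44, -0.34 and 0.30. Grk2, a kinase that phosphorylates the receptor, was 1.97 above sham under POL5551 (limma adjusted p = 0.122) and 1.44 after 5 days (0.485), and stood at -0.54 in sham mouse 1 and at 2.76 and 3.00 in the other 2, so that without mouse 1 the differences were 0.83 and 0.30. Grk3, its close relative, was at -0.79 under POL5551 (0.341), and Rgs14 was at -0.55 after 5 days (0.566).

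Of 11 transcription regulators of Cxcr4 or Cxcl12, Ebf3 alone passed against sham, under POL5551. The list had a median of 0.82 under POL5551, -0.01 after 2 days and 0.15 after 5 days, and without sham mouse 1 of 1.00, -0.31 and 0.05. Between POL5551 and 2 days of G-CSF, where 5.65% of all tested probes passed and were higher, 5 of these regulators and 7 of the 26 transducers did so. Epas1, a hypoxia-inducible factor, was 2.08 above sham under POL5551 (limma adjusted p = 0.0670) and 1.41 after 5 days (0.377). It stood at 1.26, 0.12 and 1.16 in POL5551 mice, -1.61, -1.76 and -0.34 in 2-day mice, 1.00, -0.68 and 0.22 in 5-day mice and -1.19, -1.45 and -1.05 in sham mice, with the high and low mice of Cxcl12 again high and low. Its relative Hif1a was at -0.40 after 5 days (0.694) and Ebf1 at -0.10 under POL5551 (0.890), with a positive sign under quantile normalization, normexp and median scaling and in the authors' deposited table (0.20 to 0.51), and without sham mouse 1 (0.24), and a negative one under a 75th percentile over probes above background on all arrays (-0.24).

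The 6 tested members of 7 other ligands and partners, the 11 other proteases that cut CXCL12 and the 11 relatives and partners of DPP4 had no call against sham in any group. Their medians were 0.05, -0.75 and -0.76 under POL5551, where all gene names had -0.52. After 2 days they were -0.37, -0.14 and -0.07, and after 5 days -0.03, -0.28 and -0.35. Without sham mouse 1 they were -0.24, -0.41 and -0.32 under POL5551, -0.61, 0.12 and 0.24 after 2 days and -0.46, -0.16 and -0.25 after 5 days. Before adjustment, none of the ligands, 3 proteases, all lower, and 2 higher and 3 lower DPP4 relatives were under 0.05 under POL5551, where 31.5% of all tested probes were. Mif, another ligand of CXCR4, differed by 0.69 under POL5551 (limma adjusted p = 0.206) and by 0.29 without sham mouse 1. Cxcl11, a ligand of ACKR3, was at -0.63 under POL5551 (0.207; 0.06 under quantile normalization) and -0.84 after 5 days (0.406), where Hmgb1, a partner of CXCL12, was at 0.13 (0.866). Of the proteases, Mmp3 was at -1.92 under POL5551 (0.0803) and -1.15 after 5 days (0.464), and Mmp14 at 0.64 under POL5551 (0.262) and 0.55 after 5 days (0.598). Fap, the nearest relative of DPP4, was 1.41 above sham under POL5551 (0.147) and 0.46 after 5 days (0.763), Cav1, a partner of DPP4 on other cells, was at -1.17 under POL5551 (0.173), and Dpp10, a relative without enzyme activity, was at -0.77 after 5 days (0.530).

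**Figure D4:**
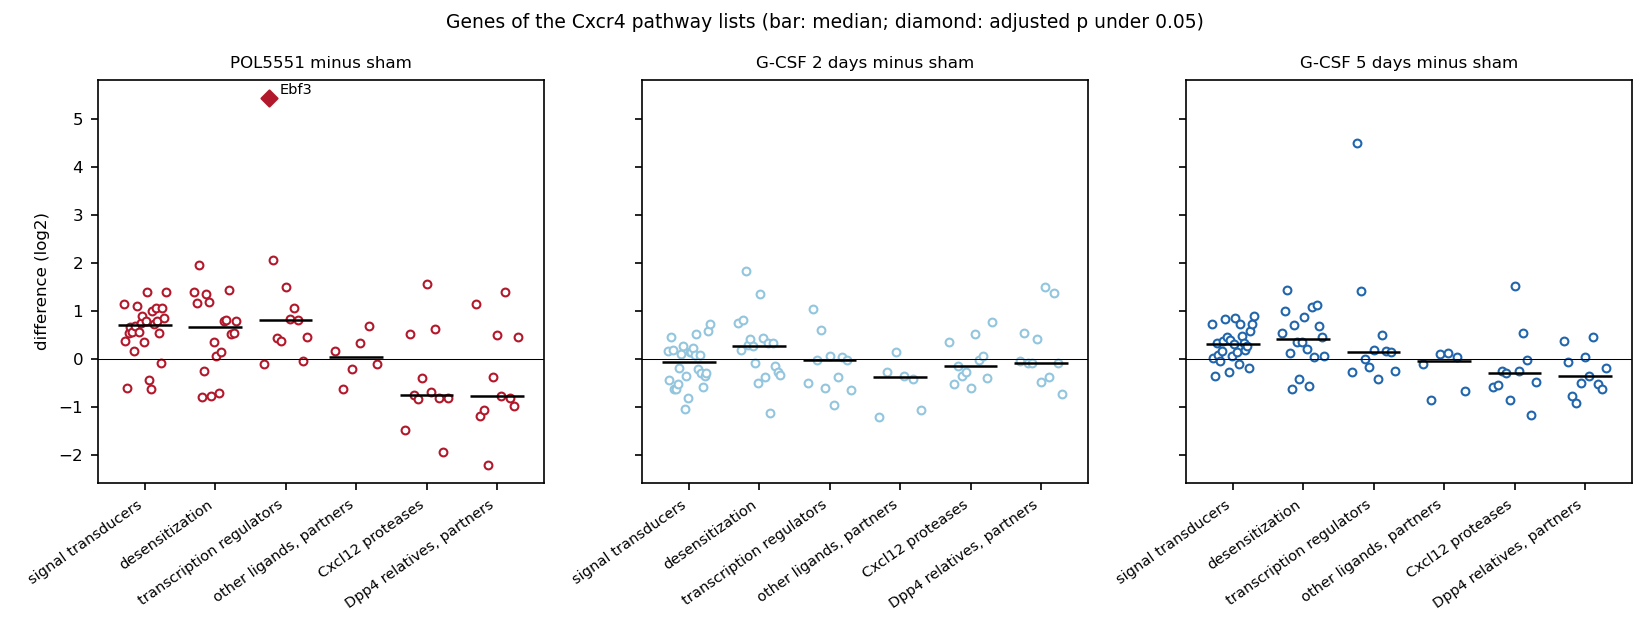
Difference from sham (y axis, log2) of each tested gene of the 6 pathway lists (x axis) under POL5551, 2 days and 5 days of G-CSF; each point is 1 gene and bars are list medians. Ebf3 under POL5551 is the only gene that passed at an adjusted p of 0.05.

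Markers of other cell types were measured beside the members. Of 9 endothelial markers none passed against sham, and their summed level ran from 2.72 to 3.44 in POL5551 mice, 3.12 to 3.64 in 2-day mice, 2.76 to 3.42 in 5-day mice and 2.40 to 3.13 in sham mice. The megakaryocyte gene Gp1ba rose under POL5551, by 2.65 (SE 0.555, limma adjusted p = 0.0470, at least 2.74-fold higher, no sham array above background). That was the only call against sham in the lists of blood and endothelial cell markers, kept in 2 of the 12 fits that left out 1 array and in 5 of 15 other settings. Gp1ba was well above background in 3 POL5551 mice, 3 of the 2-day mice and 2 of the 5-day mice. Its SE and adjusted p rest in part on background readings in sham mice. The 6 tested megakaryocyte markers summed to 15.0 to 15.2 in POL5551 mice, 8.05 to 10.2 in 2-day mice, 9.40 to 13.1 in 5-day mice and 8.62 to 17.2 in sham mice. Their median difference under POL5551 was 0.59, and 0.14 without sham mouse 1. Neutrophil markers summed to 9.02, 3.48 and 9.62 in POL5551 mice and to 2.58, 2.17 and 5.32 in 2-day mice. They summed to 7.14, 3.34 and 6.14 in 5-day mice and ran from 1.77 to 6.88 in sham mice, without a call. As in the reticular stroma list, mouse 2 was the lowest of the POL5551 and of the 5-day group and mouse 3 the highest of the 2-day group. In the endothelial list mouse 3 was the lowest of the 2-day group.

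**Figure D5:**
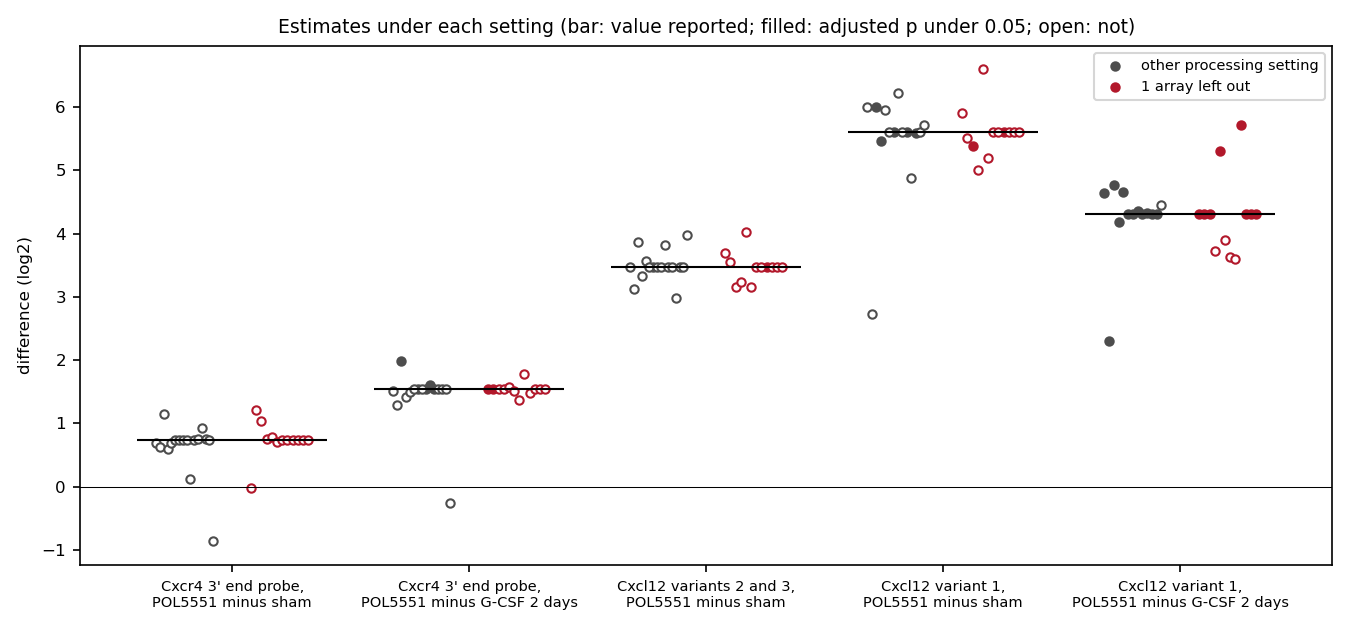
Fitted difference (y axis, log2) of 5 results on Cxcr4 and Cxcl12 (x axis) under each other processing setting (grey) and with each array left out (red); bars are the values reported, filled points pass at an adjusted p of 0.05 and open points do not. The Cxcl12 differences stay above 0 under every setting and array left out that was run, while Cxcr4 under POL5551 against sham drops to -0.01 without sham mouse 1.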

How the data were processed

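Per the file headers, the deposited scanner files hold each spot's intensity on a linear scale in a single colour, made by Agilent Feature Extraction 11.5.1.1, which subtracts background and does not normalize between arrays. The value table deposited by the authors holds intensity on a linear scale for 49665 probes with equal column medians, made in a way not given in the sources used here. Its columns match the scanner files by rank, 5 of 12 under another mouse number of the same group. It serves as an alternative only.

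Levels are log2 of the processed signal, spots marked as outliers left out and repeated spots of a probe averaged, minus the array's 75th percentile. Probes well above background on at least 3 of 12 arrays were tested, 49499 in all. Groups were compared with limma 3.58.1 (R 4.3.3) as means of 4 groups in 1 fit of the 12 arrays (8 residual degrees of freedom, 3.18 prior), two-sided, adjusted by Benjamini and Hochberg over all tested probes. An exact test of 3 against 3 mice cannot go below a p of 0.1. The procedure was checked on simulated data. The number of arrays limits the precision.

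A bound ("at least") sets the brighter group's mean against the dim group's, each dim array raised to the lowest signal among its probes well above background. Of each of 15 lists (6 of the pathway, 9 of cell types) a gene is read by its brightest tested probe. Alternatives were other scalings, normexp, the authors' table, the filter, eBayes with trend, array weights, slide, mouse number and off-tissue median terms, the 2 groups alone and each array left out. Named are all member probes, list genes that passed against sham, the largest difference in each direction of each pathway list under POL5551 and after 5 days among genes above background on 12 arrays, 3 sort markers and the 4 genes nearest each member. Members and lists were chosen with earlier results of these data known, so that counts over lists are descriptions. Slides were read from the arrays, 6 in all, scanned on 1 day. The slide of the 2-day arrays held no other group, so the fit with slide as a fixed term leaves out their comparisons. Mouse numbers did not pair the mice: same-numbered mice correlated from -0.30 to 0.25 in their deviations from the group means.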

Additional observations from a re-analysis of the deposited data

Results flagged for a closer look

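The 3′ end probe of Dpp4 was flagged between the G-CSF times because all 3 of the 5-day mice lay above the sham mean and all 3 of the 2-day mice below it. The place of the 2-day mice rests on sham mouse 1. Without that mouse the difference of 2 days from sham was 0.02, against -0.12 with it. The difference between the times was 0.59 (SE 0.296), which did not pass when tested (limma adjusted p = 0.355).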

How the results depend on the processing

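Of the member probes, 569 of 621 values under other settings and 467 of 504 with 1 array left out kept their direction and their side of the threshold, and 25 and 17 turned direction. The causes were not tested.

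Cxcl12 variant 1 under POL5551 against sham no longer passed at 5.997 with quantile normalization, 2.72 with normexp, 5.95 in the authors' table, 5.60 with no filter on dim probes or with only the 2 groups, 6.22 with array weights, 4.88 with slide as a fixed term and 5.72 with the off-tissue median as covariate. Mouse numbers share only a number here; with the replicate block it was 5.60 (limma adjusted p = 0.0578), and the calls of that comparison were 29 higher and 156 lower, against 90 and 608. The probe of variants 2 and 3 passed at 3.47 among probes above background on all arrays.

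The off-tissue median did not overlap between POL5551 and any other group, or between the G-CSF times. Directions that turned with it as a covariate in those comparisons are therefore not read as effects. Turned directions with the off-tissue covariate, under POL5551 against sham, were -0.86 and -0.89 for the Cxcr4 3′ end and upstream probes, 0.43 for the Dpp4 Ensembl transcript probe, -0.56 for Vav1, -0.70 for Grk2, 0.78 for Ebf1, -0.25 for Mif, 0.11 for Cxcl11, 0.29 for Cav1, -1.30 for Ly6a and -0.94 for Slamf1. For 5 days against sham they were -0.75 for upstream Cxcr4, 0.22 for that Dpp4 probe, -0.075 for Vav1, 0.16 for Crk, -0.049 for Hmgb1, -0.14 for Ly6a and -0.62 for Slamf1. For 5 against 2 days they were -0.39 and -0.49 for Cxcr4 and 0.38 for Dpp4, for POL5551 against 2 days -0.25, -0.63 and 0.60, and for POL5551 against 5 days -0.14 for upstream Cxcr4 and 0.0038 and 0.21 for the Dpp4 3′ end and Ensembl probes. With slide fixed, 5 days against sham gave 0.10 for Cxcr4, -0.28 for Ackr3, 0.97 for Crk, -0.0059 for Epas1, 0.15 for Hif1a and -0.43 for Fap, and POL5551 against 5 days 0.22 for Ackr3. With array weights, 5 days against sham gave -0.22 for upstream Cxcr4 and -0.067 for Ackr3, 2 days against sham 0.18 for Dpp4, -0.51 for Ly6a and -0.60 for Slamf1, and POL5551 against sham 0.28 for Ebf1. The authors' table gave 0.091 for Ackr3, 0.51 for Ebf1 and 0.057 for Cxcl11 under POL5551 against sham and 0.050 for Ackr3 against 5 days. Quantile normalization gave 0.098, 0.48 and 0.055 for Ackr3, Ebf1 and Cxcl11, median scaling 0.30 for Ebf1, 0.36 for Kit and 0.14 for Dpp4 against 5 days, normexp 0.20 for Ebf1 and -0.0036 for Slamf1 after 2 days, and scaling on probes measured on all arrays -0.024 for Ackr3 after 5 days.

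With 1 array left out, POL5551 against sham ran from 5.01 to 6.60 for Cxcl12 variant 1, 3.16 to 4.02 for variants 2 and 3, -0.012 to 1.21 for Cxcr4, -1.68 to 0.19 for Ackr3, -0.43 to 0.24 for Ebf1 and -0.12 to 0.056 for Kit. For 2 days against sham they ran from -0.51 to 1.41 and -0.12 to 2.00 for Cxcl12, -0.21 to 0.021 and -0.41 to 0.36 for Dpp4, -0.66 to 0.71 for Ly6a and -0.67 to 0.90 for Slamf1. For 5 days against sham they were -0.96 to 0.26 and -0.50 to 0.82 for Cxcr4, -0.69 to 0.96 for Ackr3, -1.03 to 0.16 for Crk, -0.064 to 0.89 for Fap and -0.36 to 1.22 for Slamf1, and for POL5551 against 5 days -0.24 to 0.90 for Cxcl12 and -0.31 to 0.024 for Dpp4.

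Counts over all probes moved widely. For POL5551 against sham they were 0 and 0 with the off-tissue covariate (limma), 7 and 60 with only the 2 groups and 961 higher and 3566 lower without sham mouse 3. Signal near background limits Ackr3 and, in sham and 2-day mice, Cxcl12 variant 1.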
